A study of Homo sapiens with 15 samples.

Results

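The HOX cluster genes were taken as all protein-coding genes of the GENCODE v29 annotation whose symbol is HOXA, HOXB, HOXC or HOXD followed by a number, matched to the expression tables by Ensembl identifier. They numbered 39 of the 58735 genes in the tables, with 11 in HOXA, 10 in HOXB, 9 in HOXC and 9 in HOXD. The study asked which genes of supporting cells alter the drug resistance of neighbouring tumor cells, and its RNA-seq measured clones of HEK293T, a human embryonic kidney cell line that carries the SV40 large T antigen. Each clone was transduced with a lentiCRISPRv2 vector and grown from limiting dilution. The 5 groups were Non-target, with a vector that targets no gene and the genotype label WT, and 4 CRISPR knockout clones (CKO), each labelled with the knockout of the gene it is named for: C9orf89-CKO, then MAGI2-CKO, then MLPH-CKO and then RHBDD2-CKO. Where 4 values follow one another without names, they stand in this clone order. Each group was 1 clone measured in 3 wells, so p-values here measure the spread between wells of 1 clone, and the effect of a targeted gene and of the choice of a clone cannot be told apart. All libraries came from cells grown without tumor cells or drug, as far as the labels state. Values are FPKM (fragments per kilobase of exon, scaled to the size of the library), which compare genes per unit of length. The libraries held between 15517856 and 19489918 gene-assigned fragments, 262601551 in all.

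HOX genes encode transcription factors that bind DNA through a homeodomain. In vertebrates they stand in clusters named HOXA to HOXD, and members at the same place in different clusters are paralogs that carry the same number. During development the low-numbered (anterior) genes at the 3′ end are switched on first and towards the head, and the high-numbered (posterior) genes at the 5′ end later and towards the tail, a rule called collinearity. Polycomb complexes keep the clusters silent, trithorax and MLL complexes keep them active, retinoic acid induces the anterior genes, and TALE proteins such as PBX and MEIS bind DNA together with HOX proteins. The embryonic kidney uses posterior genes, among them the group 11 paralogs, and cultured cell lines usually keep a HOX pattern of the tissue they came from. In bulk RNA, fewer cells that express a gene and less RNA per cell cannot be told apart.

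In the annotation (GRCh38) the HOXA genes lie on the minus strand of chromosome 7, the HOXB genes span chr17:48528526-48729178 on the minus strand, the HOXC genes chr12:53938765-54056030 on the plus strand, and the HOXD genes chr2:176092891-176190907 on the plus strand. The HOXB, HOXC and HOXD spans are 200.653, 117.266 and 98.017 kb long. The library kit does not mark strand, so a fragment in an exon shared by a HOX gene and an antisense transcript cannot be assigned to one of them. A median of 9.71% of the exon length of a HOX gene lies under an exon of another gene on either strand. For 14 HOX genes that share is 0, and for 5 (HOXA7, HOXC5, HOXD1, HOXD3 and HOXD4) it exceeds 50%.

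The targeted genes were read first, as a check of the labels. CARD19, the current symbol of C9orf89, had 5.70, 7.71 and 6.27 FPKM in the Non-target wells and 4.34, 4.27 and 4.34 FPKM in the C9orf89-CKO wells (log2 fold change -0.58, adjusted p = 0.000977, limma). It was also lower in RHBDD2-CKO, at 4.52, 5.17 and 4.69 FPKM (-0.44, adjusted p = 0.00489). The difference in CARD19 between RHBDD2-CKO and C9orf89-CKO did not pass the test (0.145, adjusted p = 0.32). RHBDD2 had 27.4, 38.1 and 34.9 FPKM in Non-target and 11.2, 13.5 and 12.4 FPKM for RHBDD2-CKO, a log2 fold change of -1.42 (adjusted p = 7.56e-06). RHBDD2 was also low in MAGI2-CKO, at 11.7, 13.8 and 16.0 FPKM, a range that overlaps that of RHBDD2-CKO, and the difference between these 2 clones did not pass the test (adjusted p = 0.405). MAGI2 had between 32 and 68 fragments in every library and was not tested, and MLPH had no fragment in any library, so neither checks its label. A cut by Cas9 need not lower the transcript. In every group replicate 1 stood apart from replicates 2 and 3: the chi-square per gene of pairs with replicate 1 was between 14.6 and 24.8, against between 2.40 and 6.54 for replicate 2 against replicate 3. Calls that change without replicate 1 or another well are given after the comparisons below.

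Of the 39 HOX genes, 34 reached 0.5 FPKM in at least 3 libraries and were tested, 31 had a mean of at least 1 FPKM over the 15 libraries, and 16 had a mean of at least 10 FPKM. The most abundant were HOXB9 (mean 103.1 FPKM, rank 358 of 58735 genes), HOXD13 (93.2 FPKM, rank 407) and HOXA5 (62.2 FPKM, rank 665), followed by HOXA9 at 28.8 and HOXA6 at 23.6 FPKM. HOXB1, a hindbrain gene, had 0 fragments in all 15 libraries. HOXC5 (1 to 9 fragments per library), HOXD3 (3 to 18), HOXD4 (0 to 14) and HOXD12 (4 to 18) were below the level tested. Anterior genes were low in each cluster relative to the posterior ones except in HOXC, where HOXC4 had a mean of 13.96 FPKM. In Non-target, groups 1 to 4 summed to 13.7 FPKM in HOXA and 0.435 FPKM in HOXD, while groups 9 to 13 summed to 61.2 and 104 FPKM.

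**Figure D1:**
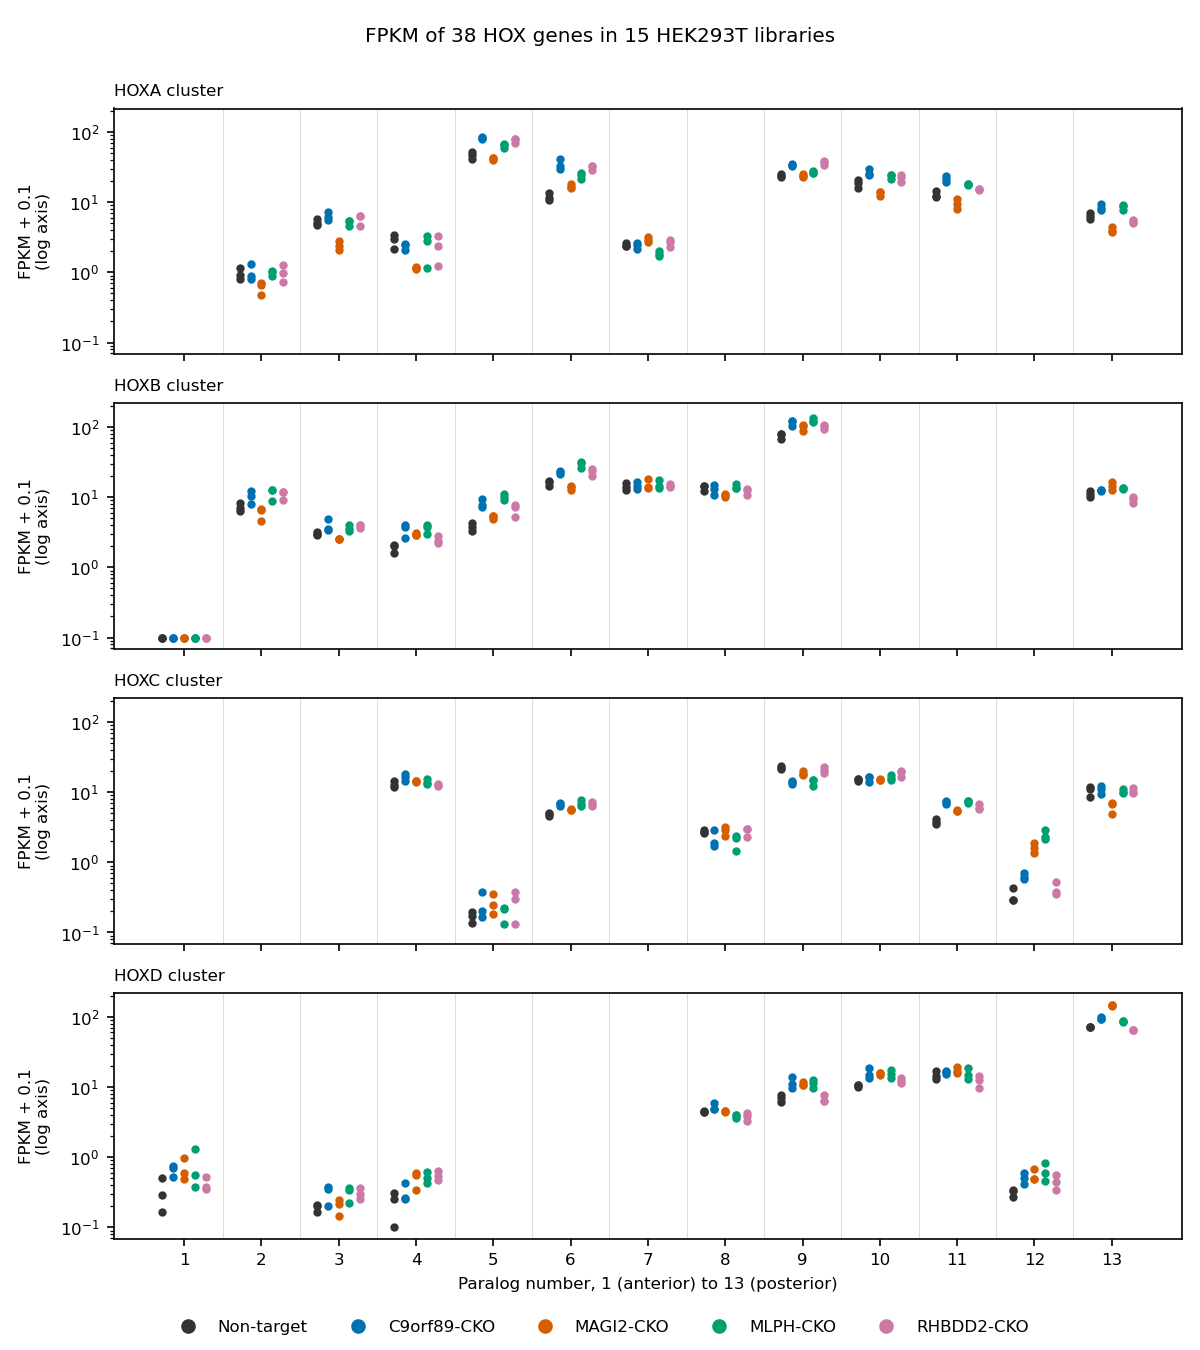
FPKM + 0.1 (log axis) of 38 HOX genes, 1 panel a cluster, by paralog number from anterior to posterior, with 1 point per well in the color of its group. HOXB9, HOXD13 and HOXA5 stand above the others, and HOXB1 has no fragment in any library.

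The summed levels of HOXA, HOXB and HOXD ranged more widely between the groups than that of HOXC, and in those clusters a single gene made up much of the sum. HOXA summed to 136 ± 7.26 FPKM (SD, n = 3) in Non-target, and to 227 ± 4.73, 117 ± 2.62, 181 ± 6.60 and 203 ± 12.1 FPKM in clone order. HOXB summed to 146 ± 7.97, 203 ± 7.06, 168 ± 9.95, 224 ± 10.8 and 183 ± 12.3 FPKM, again with Non-target first. HOXD summed to 109 ± 1.78, 146 ± 5.37, 196 ± 3.32, 134 ± 6.38 and 101 ± 4.61 FPKM. HOXC, by contrast, lay between 69.0 and 78.0 FPKM in all 5 groups, with ratios to Non-target between 0.962 and 1.09. The share of the sum held by the most abundant member was 34.3 to 37.5% for HOXA5, 51.9 to 58.4% for HOXB9 and 64.5 to 74.6% for HOXD13. HOXC9, the most abundant HOXC gene on average, held 18.8 to 30.8%, and was below HOXC4 and HOXC10 in C9orf89-CKO and below HOXC10 in MLPH-CKO. The ratios depend on that member and on the scale: without HOXB9 the HOXB ratio of MAGI2-CKO was 0.996, not 1.15, and on a TPM scale the HOXD ratio of RHBDD2-CKO was 1.03, not 0.929.

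Each clone was then compared with Non-target gene by gene. Fold changes are differences of log2(FPKM + 0.1) from a limma fit on 16175 genes and 15 libraries, p-values are adjusted by Benjamini-Hochberg over all genes tested, and a gene passed at an adjusted p below 0.05. The 4 comparisons share the same Non-target wells, so their values are given side by side. In C9orf89-CKO 19 of the 34 tested HOX genes passed (background 26% of all genes tested), 18 higher (background 12.9%) and 1 lower (13.1%). In MAGI2-CKO 19 passed (background 36.1%), 11 higher (17%) and 8 lower (19.1%). In MLPH-CKO 19 passed (30.1%), 17 higher (14.5%) and 2 lower (15.5%). In RHBDD2-CKO 14 passed (34.1%), 12 higher (17.4%) and 2 lower (16.7%), 1 of which, HOXD13, depends on the scaling between libraries. The share of tested HOX genes that passed was thus 55.9% in 3 clones, above the background, and 41.2% in RHBDD2-CKO, closer to it. Without Non-target replicate 3 or without RHBDD2-CKO replicate 2, 9 passed in RHBDD2-CKO (26.5%, against 27.6 and 28.7% of all genes). With replicate number as a block in the fit, 18 passed there (52.9%, against 43.5% of all genes). The wells of the clone and of Non-target did not overlap for 21, 23, 24 and 19 HOX genes in clone order, against 39.7%, 46.8%, 41.1% and 44.2% of all genes tested. The median log2 fold change of the tested HOX genes was 0.44, 0.03, 0.30 and 0.24 in clone order, while the median of all genes lay between -0.01 and 0.

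Differences among the 5 groups passed the F test for 28 of the 34 tested HOX genes (background 61%). HOXA6, HOXB5, HOXB9, HOXC6 and HOXC11 were higher in all 4 clones (background 3.39%), and no HOX gene was lower in all 4 (3.26%). HOXA10, HOXA11, HOXA13, HOXB13 and HOXD13 were among the genes higher in at least 1 clone and lower in at least 1 other (background 7.28%), which for HOXD13 rests on a small difference in RHBDD2-CKO described below. HOXA2, HOXB7, HOXC8, HOXD1, HOXD8 and HOXD11 passed in none (background 38.5%). HOXB7 lay between 12.7 and 18.3 FPKM in all 15 wells. HOXA2 and HOXD1 had at most 50 and 44 fragments per library.

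Some of these calls rest on single wells. Leaving out each of the 15 libraries in turn kept 18 of 19 calls in C9orf89-CKO, 14 of 19 in MAGI2-CKO, 17 of 19 for MLPH-CKO and 8 of 14 in RHBDD2-CKO. The share of calls kept over all genes is not given here, so these counts do not set HOX genes apart from other genes. Shares of all genes that passed in fits with fewer wells are given in the last section. The C9orf89-CKO call lost was HOXC4, for example without C9orf89-CKO replicate 1 (0.25, adjusted p = 0.0797). Those lost in MAGI2-CKO were HOXA4 without Non-target replicate 2 (-1.14, adjusted p = 0.0672) or replicate 3, HOXB5 without Non-target replicate 3 (0.40, 0.0852), HOXB8 without MAGI2-CKO replicate 2 (-0.31, 0.104), HOXB13 without MAGI2-CKO replicate 3 (0.27, 0.0624) and HOXC6 without Non-target replicate 1 (0.20, 0.0816). In MLPH-CKO they were HOXA10 without Non-target replicate 1 (0.24, 0.154) and HOXB2 without MLPH-CKO replicate 2 (0.55, 0.103). In RHBDD2-CKO they included HOXB2 without RHBDD2-CKO replicate 3 (0.53, 0.11), HOXB3 without Non-target replicate 2 (0.34, 0.102), HOXB13 without Non-target replicate 2 (-0.22, 0.161), HOXC10 without RHBDD2-CKO replicate 2 (0.25, 0.0711) and HOXD13 without Non-target replicate 3 (-0.14, 0.0772). For each gene the omission named is an example, and others are counted in these totals. Other genes passed when some single well was left out: HOXB3, HOXC8 and HOXD1 in C9orf89-CKO, HOXA2, HOXA5, HOXB3, HOXB6, HOXC9 and HOXD1 for MAGI2-CKO, HOXB3, HOXB13 and HOXD1 for MLPH-CKO, and HOXA10, HOXA11, HOXA13 and HOXD8 for RHBDD2-CKO.

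Without replicate 1 of every group, calls changed for some genes. HOXB2 then passed in C9orf89-CKO (0.54, adjusted p = 0.00502), HOXA5 (-0.20, 0.0171) and HOXB6 (-0.26, 0.00942) were lower in MAGI2-CKO, HOXB3 passed in MLPH-CKO (0.34, 0.0171), and HOXA10 (0.25, 0.0432) and HOXD10 (0.30, 0.0297) passed in RHBDD2-CKO. Calls no longer passing included HOXC4 in C9orf89-CKO (0.18, 0.133), HOXB4 (0.51, 0.109) and HOXB8 (-0.35, 0.0528) in MAGI2-CKO, and HOXC10 in RHBDD2-CKO (0.27, 0.0642). With all wells and replicate number as a block in the fit, 11 further calls passed and none was lost, as listed in the last section.

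**Figure D2:**
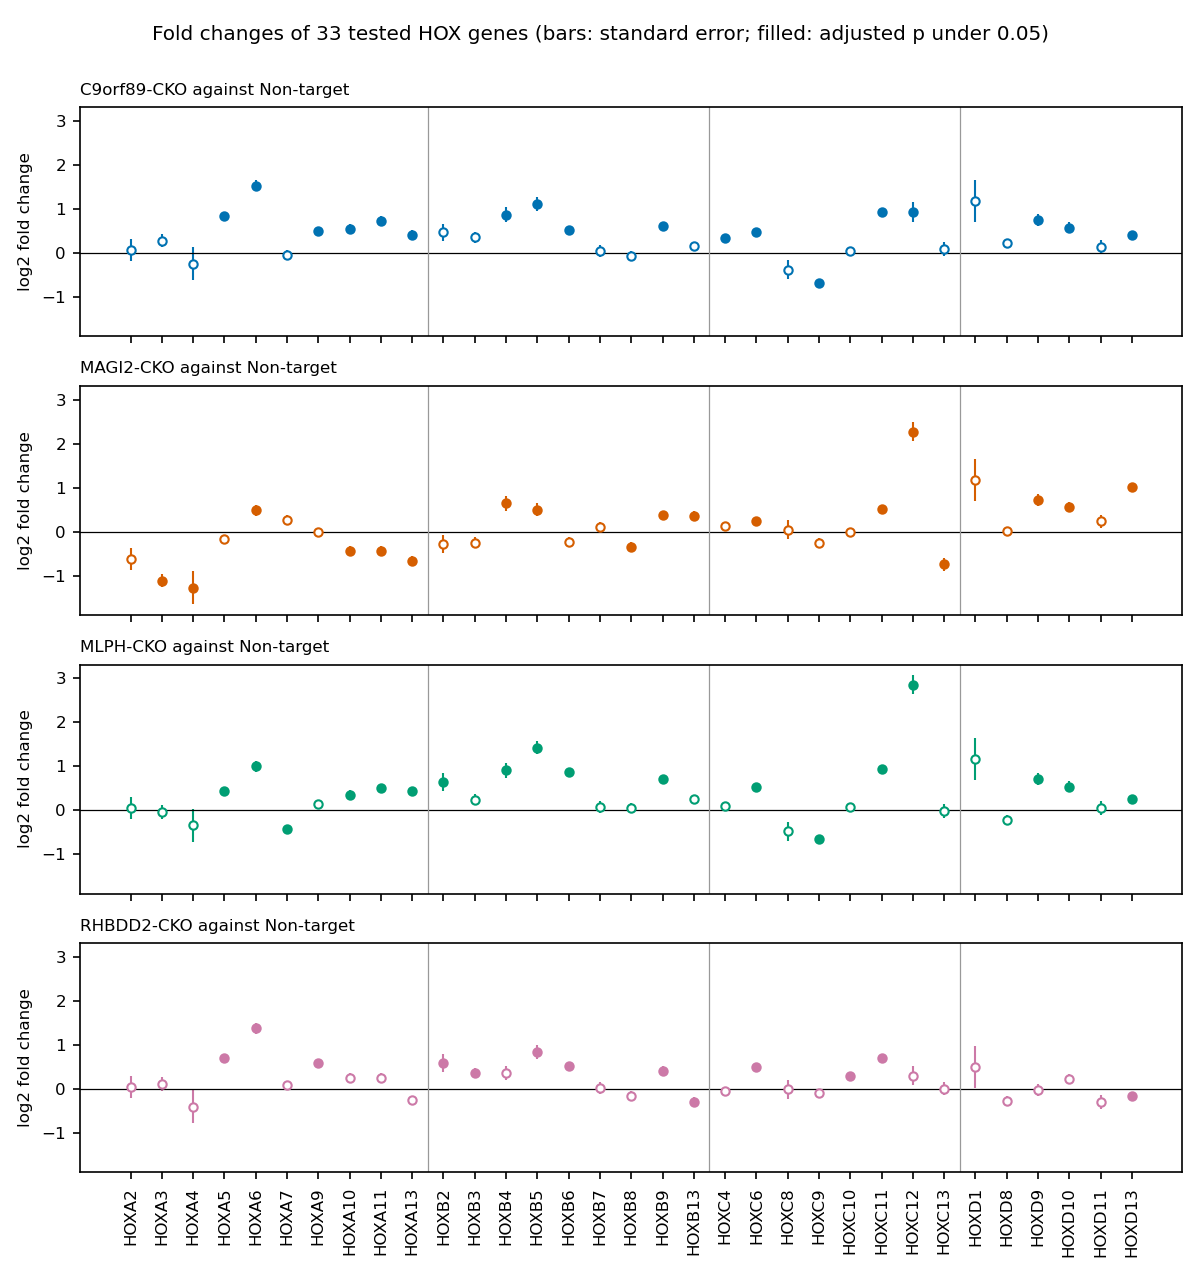
Log2 fold change against Non-target, on the log2(FPKM + 0.1) scale, of 33 tested HOX genes in each clone, by cluster and gene number, with bars of 1 SE and filled points for genes that passed at an adjusted p below 0.05. HOXA genes of MAGI2-CKO lie mostly below 0 while those of C9orf89-CKO lie mostly above 0.

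In HOXA, 7 of 11 genes were higher and none lower in C9orf89-CKO, MLPH-CKO had 6 higher and 1 lower, RHBDD2-CKO had 4 higher and none lower, and MAGI2-CKO had 1 higher and 6 lower (background in clone order 12.9, 17, 14.5 and 17.4% higher and 13.1, 19.1, 15.5 and 16.7% lower). The median log2 fold change of the 11 genes was 0.49, 0.34 and 0.25 in the first 3 of these clones and -0.45 in MAGI2-CKO. By position in the cluster, the MAGI2-CKO median was -1.18 over groups 1 to 4, 0.26 over the 3 genes of groups 5 to 8 and -0.45 over groups 9 to 13. The same medians were 0.17, 0.83 and 0.51 for C9orf89-CKO, 0.01, 0.45 and 0.39 for MLPH-CKO, and 0.08, 0.71 and 0.26 for RHBDD2-CKO, so the middle genes had the highest median in all 4 clones.

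HOXA3 (ENSG00000105997, chr7:27106184-27152581), a gene of pharyngeal arch and hindbrain development, had 4.70, 5.01 and 5.66 FPKM in Non-target, 7.20, 5.47 and 6.03 for C9orf89-CKO, 1.97, 2.31 and 2.70 for MAGI2-CKO, 4.46, 5.24 and 5.26 for MLPH-CKO, and 4.45, 6.16 and 6.28 for RHBDD2-CKO. Only the MAGI2-CKO wells stood apart from Non-target and passed the test (log2 fold change -1.11 ± 0.15, adjusted p = 9.65e-05). HOXA4 (ENSG00000197576, chr7:27128507-27130799) had 2.07, 3.29 and 2.90 FPKM in Non-target, 2.43, 2.00 and 2.37 for C9orf89-CKO, 1.03, 1.09 and 1.06 for MAGI2-CKO, 1.07, 3.25 and 2.68 for MLPH-CKO, and 1.13, 3.21 and 2.25 for RHBDD2-CKO. Replicate 1 of MLPH-CKO and of RHBDD2-CKO was as low as the MAGI2-CKO wells, which differed little from one another. HOXA4 passed in MAGI2-CKO alone (-1.27 ± 0.38, adjusted p = 0.0186), and 47.3% of its exon length is shared with noncoding transcripts.

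HOXA6 (ENSG00000106006, chr7:27145396-27150603), a middle gene of the cluster, had the highest fold change of the HOXA genes in every clone. It had 13.6, 10.6 and 11.5 FPKM in Non-target, 41.8, 29.3 and 32.8 for C9orf89-CKO, 17.8, 16.2 and 15.9 for MAGI2-CKO, 24.3, 25.6 and 21.5 for MLPH-CKO, and 28.5, 32.2 and 32.2 for RHBDD2-CKO. All 12 wells of the clones lay above the Non-target wells. The log2 fold changes were 1.53 ± 0.13 (adjusted p = 2.55e-06), 0.49 ± 0.13 (0.00867), 0.9997 ± 0.13 (7.41e-05) and 1.38 ± 0.13 (4.62e-06) in clone order. Of the exon length of HOXA6, 40.1% lies under noncoding transcripts, chiefly the antisense HOXA-AS3, which was itself higher in C9orf89-CKO (1.15, adjusted p = 0.00795) and RHBDD2-CKO (0.94, adjusted p = 0.0183); its part in the HOXA6 values was not tested. Its neighbour HOXA5, a regulator of lung and skeletal patterning with no shared exon, had 41.5, 52.2 and 46.7 FPKM in Non-target, 80.5, 84.7 and 83.2 for C9orf89-CKO, 39.4, 42.9 and 42.7 for MAGI2-CKO, 59.4, 65.1 and 66.8 for MLPH-CKO, and 69.1, 80.6 and 78.9 for RHBDD2-CKO. HOXA5 was thus higher in 3 clones (0.83, 0.45 and 0.71 for C9orf89-CKO, MLPH-CKO and RHBDD2-CKO) and overlapped Non-target in MAGI2-CKO.

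The RefSeq promoter table (GRCh38.p14, 250 bases before to 50 after a gene's start) held 20 of the 39 HOX genes. A pair is printed here, the HOXA gene with the highest fold change in every clone, HOXA6 at chr7:27147725-27148024 on the minus strand and the most abundant HOXD gene, HOXD13 at chr2:176092471-176092770 on the plus strand. Capitals mark matches, on either strand, to the TATA box (TATAAA), the CCAAT box, the GC box (GGGCGG), a motif bound by HOX with PBX (TGATNNAT), a retinoic acid receptor motif (AGTTCA) and a CDX motif (TTTATT). Matches that touch or overlap run together.
HOXA6: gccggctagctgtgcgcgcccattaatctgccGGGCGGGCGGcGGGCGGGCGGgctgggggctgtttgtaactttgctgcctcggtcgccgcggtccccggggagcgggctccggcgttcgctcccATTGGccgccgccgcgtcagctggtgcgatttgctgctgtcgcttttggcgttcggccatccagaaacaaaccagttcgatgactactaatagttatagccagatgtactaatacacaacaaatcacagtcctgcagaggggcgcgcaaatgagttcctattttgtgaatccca
HOXD13: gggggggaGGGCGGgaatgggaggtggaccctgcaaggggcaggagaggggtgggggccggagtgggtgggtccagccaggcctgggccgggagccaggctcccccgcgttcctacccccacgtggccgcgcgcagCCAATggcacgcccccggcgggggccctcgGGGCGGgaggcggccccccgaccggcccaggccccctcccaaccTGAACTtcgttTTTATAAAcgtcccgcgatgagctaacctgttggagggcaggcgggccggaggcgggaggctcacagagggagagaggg
The HOXA6 window held 1 CCAAT and 4 GGGCGG matches, and the HOXD13 window 2 TATAAA, 1 CCAAT, 2 GGGCGG and 1 AGTTCA. The RefSeq start of HOXA6 coincides with a GENCODE start, and that of HOXD13 lies 170 bases from the nearest one. CCAAT was found in 17 of the 20 HOX windows (85%), against 34.6% of all 35116 windows, and GGGCGG in 10 of 20, against 45%. TATAAA was in 4 HOX windows (11.5% of all), TGATNNAT in 3 (7.4%), AGTTCA in 5 (10.4%) and TTTATT in 4 (17.4%). HOXC4 and HOXC5 share the same window, and a match describes letters, not a bound site.

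Of the posterior HOXA genes, 3 were lower in MAGI2-CKO. HOXA13, a gene of limb and urogenital development, had 6.25, 5.70 and 6.80 FPKM in Non-target, 7.51, 9.25 and 8.28 for C9orf89-CKO, 3.74, 4.37 and 3.62 for MAGI2-CKO, 7.75, 8.72 and 8.95 for MLPH-CKO, and 4.94, 5.55 and 5.16 for RHBDD2-CKO. The log2 fold changes of HOXA13 were 0.41 (adjusted p = 0.00874), -0.67 (0.000203) and 0.43 (0.00535) in the first 3 clones, and -0.25 in RHBDD2-CKO, which did not pass (0.0662). HOXA10 and HOXA11, which pattern the uterus, limb and, for HOXA11, the kidney, had log2 fold changes of 0.53 and 0.73 in C9orf89-CKO, -0.45 and -0.45 in MAGI2-CKO, and 0.34 and 0.50 in MLPH-CKO, each past the threshold, and 0.26 and 0.25 in RHBDD2-CKO, which did not pass. With replicate number as a block in the limma fit, HOXA10, HOXA11 and HOXA13 passed in RHBDD2-CKO (adjusted p = 0.00641, 0.034 and 0.0351). Of the exon length of HOXA11, 31.1% lies under the antisense HOXA11-AS, whose part in the HOXA11 values was not tested. HOXA9, a gene best known from myeloid leukemia, was higher in C9orf89-CKO (0.49) and RHBDD2-CKO (0.59) and overlapped Non-target in MAGI2-CKO, at 22.5 to 25.3 FPKM against 23.1 to 25.3. HOXA7 passed only in MLPH-CKO (-0.43, adjusted p = 0.00841), where 62.5% of its exon length lies under HOXA-AS3. HOXA3, HOXA10, HOXA11, HOXA13 and HOXC13 were among the genes lower in MAGI2-CKO than in each of the other 4 groups (background 4.84%), and HOXA7 was lower in MLPH-CKO than in each other group (2.1%).

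**Figure D3:**
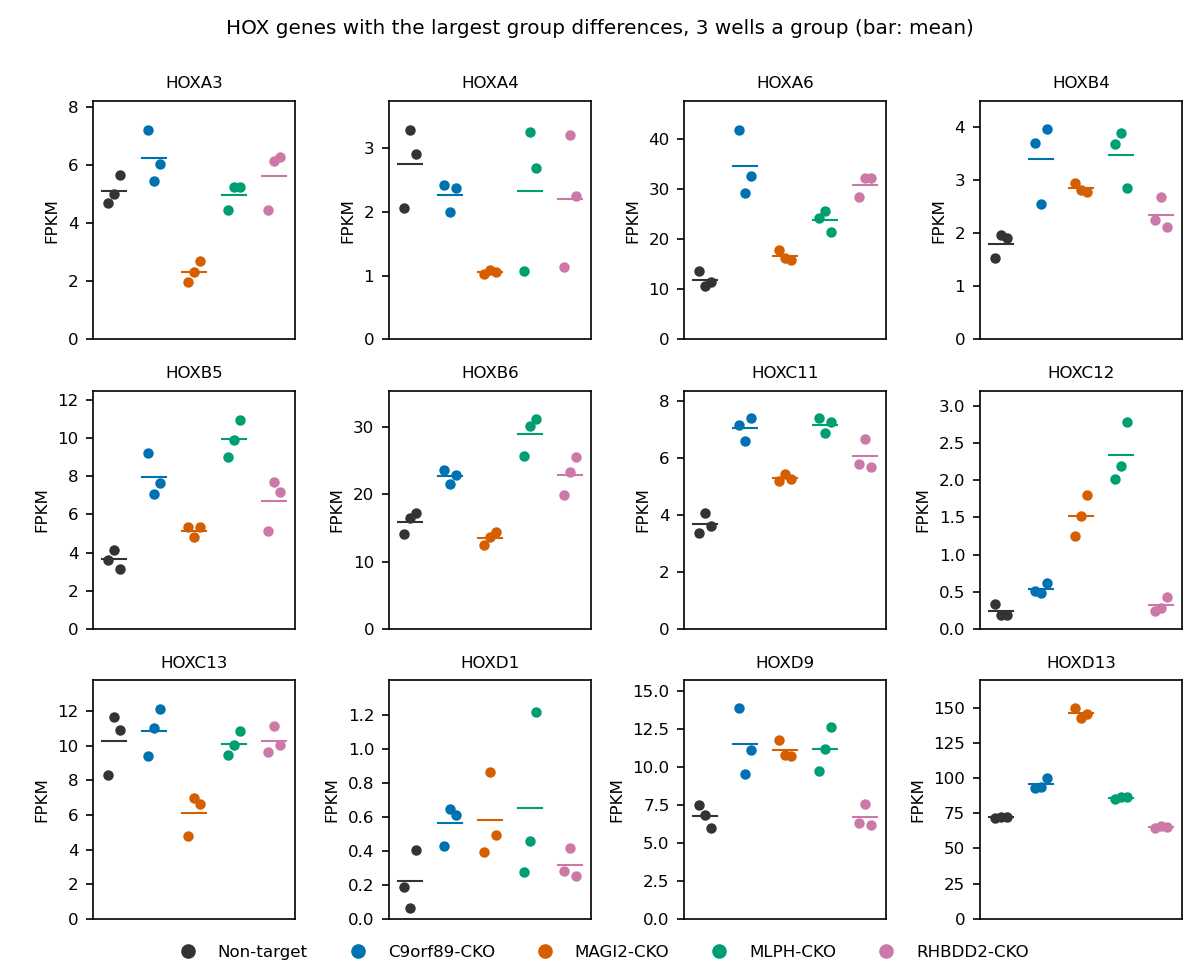
FPKM in each of the 15 wells of 12 HOX genes, 1 panel a gene, with the group mean as a bar, and every axis from 0. The genes had a mean of at least 1 FPKM and a call of at least 2-fold, or 1 of the 3 widest ratios of group means in their cluster. HOXA3 of MAGI2-CKO lies between 1.97 and 2.70 FPKM, under all other wells, and HOXD13 of MAGI2-CKO lies above all other wells.

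Genes around the HOXA cluster and over the rest of chromosome 7 were also low in MAGI2-CKO. Within 1 Mb of the cluster, the median log2 fold change of 8 tested protein-coding genes in MAGI2-CKO was -0.72. Of these, 7 were lower (background 19.1% of all genes tested) and none higher (17%). They were NFE2L3 (-1.47), SKAP2 (-1.06), SNX10 (-0.86), HIBADH (-0.77), CBX3 (-0.66), JAZF1 (-0.62) and TAX1BP1 (-0.61), while HNRNPA2B1 (-0.18) did not pass. In the other clones the same median was -0.02, 0.09 and 0.11. Over the 569 tested protein-coding genes of chromosome 7 outside the cluster, a set chosen after these values were seen, the median in MAGI2-CKO was -0.52. Of these genes, 350 were lower (background 19.1%) and 29 higher (17%). The other 3 clones had chromosome medians of -0.04, -0.05 and -0.06. RHBDD2 and MAGI2 are also genes of chromosome 7, and the number of copies of the chromosome was not measured. The part of this shift in the HOXA values of MAGI2-CKO was not tested; the HOXA median of that clone (-0.45) was close to the chromosome median, HOXA2, HOXA3, HOXA4 and HOXA13 were among the genes lower than it, and HOXA5, HOXA6, HOXA7, HOXA9, HOXA10 and HOXA11 were above it.

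In MAGI2-CKO, neighbours of the other clusters had medians nearer to 0. Around HOXB, 29 genes had medians of 0.28, 0.29, 0.27 and 0.14 in clone order. Of these genes, 15, 13, 15 and 9 were higher (background 12.9, 17, 14.5 and 17.4% of all genes tested). The number lower was 0, 0, 1 and 2 (background 13.1, 19.1, 15.5 and 16.7%). The medians over all tested protein-coding genes of chromosome 17 outside the cluster were 0.10, 0.16, 0.14 and 0.02. Around HOXC, 29 genes had medians of 0.16, 0.16, 0.16 and -0.06, and around HOXD 4 genes had medians of 0.01, 0.01, 0.15 and 0.07. The HOXB genes themselves had medians of 0.46, 0.10, 0.64 and 0.37, and the part of the neighbourhood in those values was not tested.

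**Figure D4:**
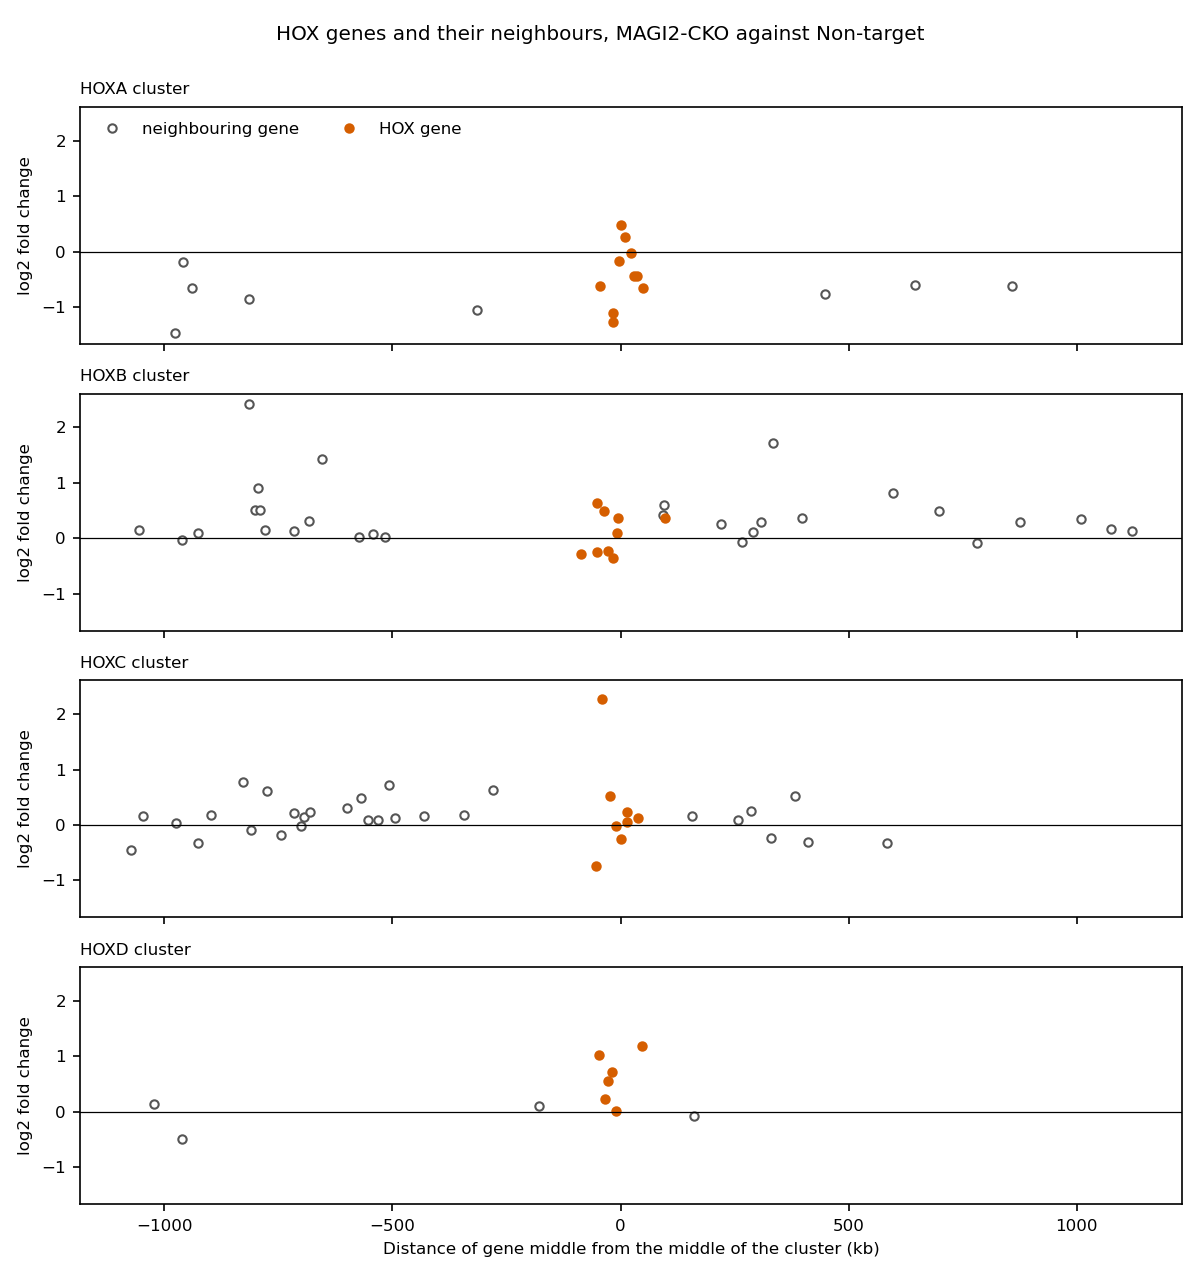
Log2 fold change in MAGI2-CKO against Non-target of 33 tested HOX genes (filled) and of tested protein-coding neighbours within 1 Mb (open), by the distance of the gene middle from the middle of the cluster (kb), 1 panel a cluster. In the HOXA panel the neighbours lie below 0 on both sides, with a median of -0.72.

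In HOXB, 4, 4, 5 and 5 of the 9 tested genes were higher in clone order (background 12.9, 17, 14.5 and 17.4%), HOXB8 was lower in MAGI2-CKO, and HOXB13 was lower in RHBDD2-CKO. HOXB5 (ENSG00000120075, chr17:48591257-48593961), a gene of lung and enteric neural development, had 3.63, 4.15 and 3.16 FPKM in Non-target, 9.20, 7.07 and 7.67 for C9orf89-CKO, 5.33, 4.83 and 5.32 for MAGI2-CKO, 8.99, 9.91 and 10.96 for MLPH-CKO, and 5.15, 7.72 and 7.17 for RHBDD2-CKO. None of the clones overlapped Non-target, and MLPH-CKO was highest. The log2 fold changes of HOXB5 were 1.11 ± 0.15 (adjusted p = 0.000155), 0.50 ± 0.15 (0.0198), 1.43 ± 0.15 (1.64e-05) and 0.84 ± 0.15 (0.000896). HOXB4 (ENSG00000182742, chr17:48575513-48580111), known for the expansion of blood stem cells, had 1.53, 1.96 and 1.91 FPKM in Non-target, 3.69, 2.56 and 3.96 for C9orf89-CKO, 2.95, 2.81 and 2.77 for MAGI2-CKO, 3.69, 3.89 and 2.85 for MLPH-CKO, and 2.24, 2.69 and 2.11 for RHBDD2-CKO. The first 3 clones passed (0.87, 0.64 and 0.91, each ± 0.17) and RHBDD2-CKO did not (0.37, adjusted p = 0.107), although its wells also lay above those of Non-target. HOXB6 (ENSG00000108511, chr17:48595751-48604992) had 14.1, 16.5 and 17.2 FPKM in Non-target, 23.6, 21.5 and 22.9 for C9orf89-CKO, 12.4, 13.7 and 14.3 for MAGI2-CKO, 25.7, 30.1 and 31.2 for MLPH-CKO, and 19.8, 23.3 and 25.5 for RHBDD2-CKO. It was higher in 3 clones (0.51, 0.86 ± 0.11 and 0.52) and overlapped Non-target in MAGI2-CKO (-0.24, adjusted p = 0.101). Of the exon length of HOXB6, 32.9% lies under HOXB3 and the antisense HOXB-AS3. HOXB-AS3 was higher in the same 3 clones (0.75, 0.56 and 0.75), and its part in the HOXB6 values was not tested. HOXB6 in MLPH-CKO was higher than in each of the other 4 groups (background 0.785%).

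HOXB9, the most abundant HOX transcript, had 68.4, 79.9 and 79.0 FPKM in Non-target, 103, 123 and 121 for C9orf89-CKO, 87.9, 102 and 105 for MAGI2-CKO, 118, 134 and 122 for MLPH-CKO, and 93.6, 107 and 103 for RHBDD2-CKO. Every well of every clone was above the Non-target wells, and replicate 1 was the lowest well in each group. The log2 fold changes of HOXB9 were 0.61 (adjusted p = 0.000569), 0.37 (0.00913), 0.72 (0.000141) and 0.42 (0.00517). HOXB13, a gene of prostate and tail development that stands apart from the rest of its cluster, was higher in MAGI2-CKO (12.35, 14.4 and 16.2 FPKM against 10.04, 12.26 and 10.996 in Non-target, 0.36, adjusted p = 0.0132), where its lowest well was close to the highest Non-target well. In RHBDD2-CKO it had 8.08, 9.30 and 9.82 FPKM, under every Non-target well (-0.29, adjusted p = 0.0407). HOXB13 and HOXD13 were lower in RHBDD2-CKO than in each of the other 4 groups (background 5.88%), which for HOXD13 did not hold against Non-target under quantile normalization. HOXB2 passed in MLPH-CKO (0.64, adjusted p = 0.0282) and RHBDD2-CKO (0.60, adjusted p = 0.0355), and HOXB3 in RHBDD2-CKO (0.37, adjusted p = 0.0339).

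Noncoding genes lying in or within 20 kb of the clusters numbered 64, of which 25 had no fragment, 25 were tested and 18 had a mean of at least 1 FPKM. Of the 25 tested, 8, 2, 4 and 7 were higher and 1, 5, 3 and 4 lower in clone order (background 12.9, 17, 14.5 and 17.4% higher and 13.1, 19.1, 15.5 and 16.7% lower). A pair of noncoding neighbours lies between HOXB9 and HOXB13. The lincRNA AC103702.2 (chr17:48635923-48647023, minus strand) had 4.57, 4.78 and 4.39 FPKM in Non-target, 1.75, 2.16 and 1.77 for C9orf89-CKO, 0, 0.0969 and 0 for MAGI2-CKO, 1.34, 1.46 and 1.23 for MLPH-CKO, and 0.931, 0.703 and 0.539 for RHBDD2-CKO. All 12 wells of the clones were below Non-target, and all 4 clones passed, with log2 fold changes of -1.24 (adjusted p = 0.00241), -5.22 (1.11e-08), -1.70 (0.000212) and -2.53 (7.29e-06); the second of these depends on the 0.1 FPKM added. In MAGI2-CKO the 3 wells together held 3 fragments against 358 in Non-target, a ratio per sequenced fragment of 0.00719 with a 95% exact interval, for counting error only, of 0.00148 to 0.0212. The antisense HOXB-AS4 (chr17:48628675-48634932, plus strand) had 2.61, 2.03 and 2.47 FPKM in Non-target, 2.26, 1.24 and 1.79 for C9orf89-CKO, 0, 0.0771 and 0 for MAGI2-CKO, 1.23, 1.03 and 1.22 for MLPH-CKO, and 0.329, 0.618 and 0.459 for RHBDD2-CKO. It overlapped Non-target in C9orf89-CKO (-0.43, adjusted p = 0.271) and was lower in MLPH-CKO (-0.97) and RHBDD2-CKO (-2.14). In MAGI2-CKO it held 1 fragment against 78, a ratio of 0.0110 with an interval of 0.000275 to 0.0631.

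**Figure D5:**
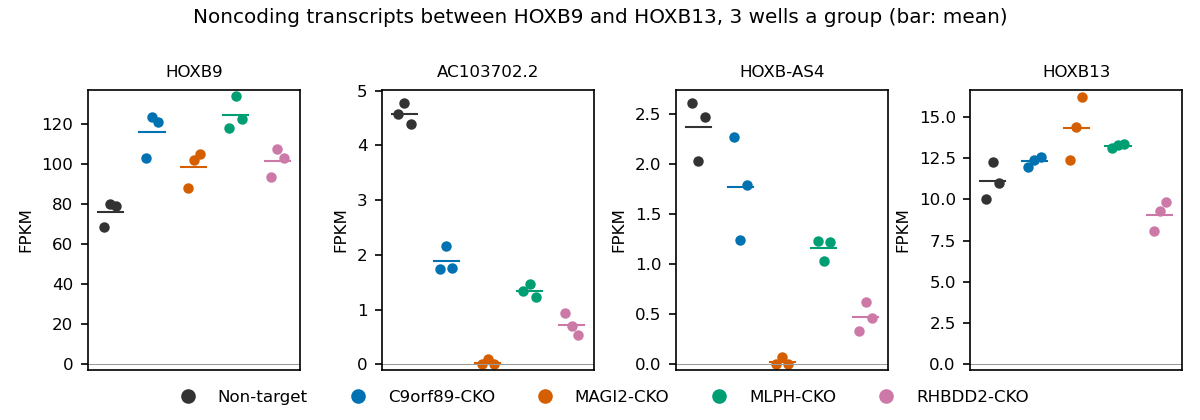
FPKM in each well of the noncoding AC103702.2 and HOXB-AS4 and of the coding genes HOXB9 and HOXB13, 1 panel a gene, with group means as bars. AC103702.2 lies between 4.39 and 4.78 FPKM in Non-target and at or below 0.0969 FPKM in MAGI2-CKO.

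The annotated span of HOXB7 (chr17:48607227-48633572) runs past HOXB9 and overlaps HOXB-AS4. The precursor gene MIR196A1 lies inside both spans, on the strand of HOXB7. It had 15 fragments over the Non-target wells and 0 in MAGI2-CKO, a ratio whose exact interval reaches 0.239. It had 6 fragments in C9orf89-CKO (adjusted p = 0.226), 1 in MLPH-CKO (ratio 0.0605, interval 0.00144 to 0.393, adjusted p = 0.0241) and 2 in RHBDD2-CKO (ratio 0.133, interval 0.0148 to 0.572, adjusted p = 0.0324). The clusters also hold further miRNA genes, and members of the miR-10 and miR-196 families are known to target HOX transcripts. Mature sequences are shown because miR-196a and miR-196b come from 3 different clusters and share a seed (bases 2 to 8, in capitals), from RefSeq GRCh38.p14:
hsa-miR-196a-5p: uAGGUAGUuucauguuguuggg
hsa-miR-196b-5p: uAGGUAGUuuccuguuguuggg
hsa-miR-10a-5p: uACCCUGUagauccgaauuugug
hsa-miR-615-3p: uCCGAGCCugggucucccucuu
The miR-196a sequence stands at chr17:48632532-48632553 (minus strand, MIR196A1) and at chr12:53991762-53991783 (plus strand, MIR196A2), miR-196b at chr7:27169528-27169549 (minus), miR-10a at chr17:48579904-48579926 (minus) and miR-615 at chr12:54034010-54034031 (plus). These libraries measured long RNA, so the mature miRNAs were not measured. A search of the exons after the stop codon of the 39 HOX genes for stretches that pair with at least 20 of the 22 bases of miR-196a found 1 gene, HOXB8, at chr17:48612770-48612791 on the minus strand. The site pairs with 21 of 22 bases, and the capital marks the base that does not form a Watson-Crick pair.
HOXB8 site: cccaacaacatgaaactGccta
HOXB8 had 14.1, 12.03 and 14.3 FPKM in Non-target and 11.03, 9.88 and 10.6 for MAGI2-CKO, the only clone in which it passed (-0.35, adjusted p = 0.0301), with log2 fold changes of -0.08, 0.06 and -0.15 in C9orf89-CKO, MLPH-CKO and RHBDD2-CKO.

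Other noncoding transcripts followed no single direction. HAGLR, antisense in the HOXD cluster, had 2.88, 2.74 and 2.84 FPKM in Non-target, 5.36, 6.22 and 5.66 for C9orf89-CKO, 3.77, 4.20 and 3.94 for MAGI2-CKO, 6.37, 5.71 and 6.17 for MLPH-CKO, and 4.47, 3.55 and 3.39 for RHBDD2-CKO. It was above Non-target in all 12 wells of the clones and passed in all 4 (0.998, 0.48, 1.08 and 0.41). HOTAIRM1, a noncoding transcript of the HOXA cluster, was lower in MAGI2-CKO (-0.996, adjusted p = 0.000179) and passed in no other clone. HOXA11-AS was higher in C9orf89-CKO (1.12), MLPH-CKO (0.52) and RHBDD2-CKO (0.27), HOXB-AS3 in C9orf89-CKO (0.75), MLPH-CKO (0.56) and RHBDD2-CKO (0.75), and HOXC-AS2 in the same 3 clones (0.46, 0.46 and 0.52). HOTAIR, a HOXC transcript, was higher in C9orf89-CKO (0.77), AC004080.2 in C9orf89-CKO (0.66), HOXC-AS1 in MAGI2-CKO (0.85) and RHBDD2-CKO (0.91), and AC004080.4 in C9orf89-CKO (1.66) and RHBDD2-CKO (1.70), while HOXC13-AS was lower in RHBDD2-CKO (-0.95). AC016739.1, HOXD-AS2, MIR10B and HOXA10-AS passed in none.

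In HOXC the genes moved in both directions. HOXC12 (ENSG00000123407, chr12:53954834-53958956), a posterior gene that shares no exon with another gene, had the largest ratio between the highest and lowest group mean of any tested HOX gene, with 0.336, 0.194 and 0.188 FPKM in Non-target, 0.509, 0.483 and 0.612 for C9orf89-CKO, 1.25, 1.52 and 1.80 for MAGI2-CKO, 2.02, 2.20 and 2.78 for MLPH-CKO, and 0.248, 0.283 and 0.424 for RHBDD2-CKO. MLPH-CKO and MAGI2-CKO were far above Non-target, C9orf89-CKO was above it by less, and RHBDD2-CKO overlapped it. The log2 fold changes of HOXC12 were 0.92 ± 0.22 (adjusted p = 0.00793), 2.27 ± 0.22 (6.25e-06), 2.86 ± 0.22 (1.32e-06) and 0.31 ± 0.22 (0.313), on 10 to 170 fragments per library. The size depends on the 0.1 FPKM added: over the settings tried the values ran from 0.31 to 1.17, 1.02 to 2.66 and 1.42 to 3.28 in the first 3 clones, the lowest with 1 FPKM added, and in C9orf89-CKO HOXC12 did not pass with only the 6 libraries compared. HOXC11 (ENSG00000123388, chr12:53973126-53977643), its neighbour, had 3.38, 4.08 and 3.61 FPKM in Non-target, 7.16, 6.60 and 7.41 for C9orf89-CKO, 5.21, 5.45 and 5.27 for MAGI2-CKO, 7.40, 6.88 and 7.27 for MLPH-CKO, and 5.78, 6.69 and 5.70 for RHBDD2-CKO. All 12 wells of the clones were above Non-target, with log2 fold changes of 0.92, 0.52, 0.95 and 0.70 and adjusted p-values of at most 0.000295. HOXC13 (ENSG00000123364, chr12:53938765-53946544), a gene of hair and nail formation, had 8.33, 11.7 and 10.9 FPKM in Non-target, 9.42, 11.045 and 12.2 for C9orf89-CKO, 4.78, 6.98 and 6.64 for MAGI2-CKO, 9.49, 10.1 and 10.8 for MLPH-CKO, and 9.66, 11.2 and 10.1 for RHBDD2-CKO. It was lower in MAGI2-CKO alone (-0.74 ± 0.15, adjusted p = 0.00201), so the 3 adjacent genes HOXC11, HOXC12 and HOXC13 did not share a direction in that clone.

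HOXC9, the most abundant HOXC gene on average, had 21.1, 23.3 and 21.7 FPKM in Non-target, 14.4, 12.996 and 13.7 for C9orf89-CKO, 18.2, 19.7 and 17.6 for MAGI2-CKO, 14.9, 15.02 and 11.99 for MLPH-CKO, and 20.8, 22.9 and 18.4 for RHBDD2-CKO. It was lower in C9orf89-CKO (-0.69 ± 0.10, adjusted p = 0.000239) and MLPH-CKO (-0.66, adjusted p = 0.000261), and was the only HOX gene lower in C9orf89-CKO. HOXC6 was higher in all 4 clones (0.47, 0.23, 0.52 and 0.49), from 4.54 to 4.89 FPKM in Non-target to between 5.52 and 7.55 FPKM in the clones. HOXC10 passed only in RHBDD2-CKO (0.29, adjusted p = 0.0181), and HOXC4 only in C9orf89-CKO (0.33, adjusted p = 0.0196), where its wells overlapped Non-target. HOXC8 passed in none, at 1.35 to 3.08 FPKM.

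In HOXD the posterior genes carried nearly all of the signal. HOXD13 (ENSG00000128714, chr2:176092891-176095938), a gene of digit and urogenital development, had 71.5, 72.7 and 72.5 FPKM in Non-target, 93.3, 94.0 and 100.1 for C9orf89-CKO, 149.9, 142.9 and 145.9 for MAGI2-CKO, 85.6, 86.9 and 86.4 for MLPH-CKO, and 64.9, 66.0 and 65.1 for RHBDD2-CKO. In these FPKM the 5 groups did not overlap and followed the order MAGI2-CKO, C9orf89-CKO, MLPH-CKO, Non-target and RHBDD2-CKO. Against Non-target the log2 fold changes of HOXD13 were 0.41 ± 0.05 (adjusted p = 3.99e-05), 1.02 ± 0.05 (9.4e-09), 0.26 ± 0.05 (0.00112) and -0.15 ± 0.05 (0.0274). The last of these was 0.01 (adjusted p = 0.919) when libraries were scaled by quantile normalization, so its call as lower in RHBDD2-CKO than in Non-target depends on the scaling. HOXD13 was higher in MAGI2-CKO than in each of the other 4 groups (background 1.92%), with log2 differences of 0.61 to C9orf89-CKO, 0.76 to MLPH-CKO and 1.16 to RHBDD2-CKO.

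HOXD9 (ENSG00000128709, chr2:176122720-176124937) had 7.50, 6.80 and 5.97 FPKM in Non-target, 13.9, 9.50 and 11.1 for C9orf89-CKO, 11.8, 10.8 and 10.7 for MAGI2-CKO, 9.75, 11.2 and 12.6 for MLPH-CKO, and 6.27, 7.55 and 6.18 for RHBDD2-CKO. It was higher in 3 clones by like amounts (0.75, 0.71 and 0.72, each ± 0.14) and overlapped Non-target in RHBDD2-CKO (-0.02, adjusted p = 0.932). HOXD10, which acts in limb and motor neuron development, was also higher in the first 3 clones (0.58, 0.56 and 0.54), and its RHBDD2-CKO wells lay above those of Non-target without passing the test (0.24, adjusted p = 0.15). HOXD1 (ENSG00000128645, chr2:176188579-176190907), at the anterior end, had 0.189, 0.0654 and 0.404 FPKM in Non-target, 0.429, 0.647 and 0.608 for C9orf89-CKO, 0.391, 0.862 and 0.493 for MAGI2-CKO, 0.277, 0.457 and 1.22 for MLPH-CKO, and 0.279, 0.419 and 0.249 for RHBDD2-CKO. Its wells scattered widely on 2 to 44 fragments per library, and no comparison passed despite log2 fold changes of 1.18, 1.18, 1.17 and 0.50. Without replicate 3 of Non-target, the highest of its wells, HOXD1 passed in the first 3 clones (1.58, 1.58 and 1.57). Of the exon length of HOXD1, 58.1% lies under exons of other genes, among them HAGLR, whose part in the HOXD1 values was not tested. HOXD8 and HOXD11 passed in none.

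Fold changes between clones do not use the Non-target wells, although the spread was estimated over all 15 libraries. HOX genes passed for 22 of 34 between RHBDD2-CKO and MAGI2-CKO (background 41.6%; 15 higher in RHBDD2-CKO, 21.5%, and 7 lower, 20%), for 16 between RHBDD2-CKO and MLPH-CKO (background 37%; 5 higher, 18.7%, and 11 lower, 18.4%) and for 12 between RHBDD2-CKO and C9orf89-CKO (background 29.3%; 2 higher, 14.3%, and 10 lower, 15%). They passed for 18 between MAGI2-CKO and C9orf89-CKO (background 22.5%; 3 higher in MAGI2-CKO, 9.76%, and 15 lower, 12.7%), for 19 between MLPH-CKO and MAGI2-CKO (background 21.2%; 16 higher in MLPH-CKO, 11.8%, and 3 lower, 9.4%) and for 8 between MLPH-CKO and C9orf89-CKO (background 14.2%; 2 higher in MLPH-CKO, 6.63%, and 6 lower, 7.61%). MLPH-CKO and C9orf89-CKO were thus the pair with the fewest HOX genes past the threshold, and also with the lowest background. Leaving out libraries, singly or 1 replicate number in every group, gave 1 to 8 for this pair (2.34 to 19.5% of all genes). With only the 6 libraries compared the 8 became 3, a count given here without its background. No HOX gene was set apart from each other group in C9orf89-CKO (background 0.649% higher and 0.828% lower), and none was higher in RHBDD2-CKO than in each other group (5.61%).

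Genes that act on or with HOX genes were counted in lists chosen with earlier results of these data known. The background shares of calls in clone order were 12.9, 17, 14.5 and 17.4% higher and 13.1, 19.1, 15.5 and 16.7% lower, and many of the counts below are near them. Of 11 TALE cofactors, 2, 1, 1 and 1 were higher and 0, 2, 3 and 2 lower in clone order. MEIS3 had the widest range of these, higher in 3 clones (0.45, 1.01 and 0.47) and lower in RHBDD2-CKO (-1.88, adjusted p = 5.85e-09), and PKNOX2 was lower in MAGI2-CKO (-0.85), MLPH-CKO (-0.43) and RHBDD2-CKO (-0.38). Of 12 genes of Polycomb repressive complex 2, 2, 2, 2 and 3 were higher and 0, 3, 2 and 2 lower; EZH1, a catalytic subunit, was higher in all 4 clones (0.35, 0.82, 0.63 and 0.86), and JARID2 was higher in RHBDD2-CKO (0.72) and lower in MAGI2-CKO (-0.30) and MLPH-CKO (-0.27). Of 23 genes of Polycomb repressive complex 1, 3, 6, 4 and 8 were higher and 2, 5, 5 and 6 lower. BMI1 was higher in all 4 (0.40, 0.25, 0.36 and 0.38), CBX6 was higher in RHBDD2-CKO (0.69) and lower in C9orf89-CKO (-0.37) and MLPH-CKO (-0.27), and CBX7 was higher in RHBDD2-CKO (0.83) and MAGI2-CKO (0.50). Of 20 genes of the MLL and trithorax group, 3, 1, 2 and 9 were higher and 3, 3, 4 and 3 lower; MLLT3 was higher in all 4 clones (0.41, 0.40, 0.43 and 0.67), WDR5 (-0.33, -0.26, -0.36 and -0.16) and PSIP1 (-0.76, -0.71, -0.90 and -1.01) were lower in all 4, and AFF1 was higher in RHBDD2-CKO (0.81). The lists of Polycomb repressive complex 1 and of the MLL and trithorax group held calls in both directions in every clone, and that of Polycomb repressive complex 2 in every clone but C9orf89-CKO.

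Of 11 genes of chromosome architecture, 4, 3, 4 and 3 were higher and 0, 1, 2 and 3 lower. The cohesin subunit STAG2 was higher in the first 3 clones (1.09, 1.06 and 0.92) and lower in RHBDD2-CKO (-0.54), WAPL, which releases cohesin from DNA, was higher in all 4 (0.47, 0.36, 0.36 and 0.28), and MAZ was lower in RHBDD2-CKO (-0.80). In the retinoic acid pathway 16 of 19 genes were tested, with 6, 5, 5 and 3 higher and 5, 7, 4 and 6 lower, against the backgrounds of 12.9 to 17.4% higher and 13.1 to 19.1% lower that hold for every list here. CRABP2, which carries retinoic acid into the nucleus, was higher in all 4 clones (1.56, 0.99, 1.64 and 0.71), from a mean of 15.2 FPKM in Non-target to 45.1, 30.1, 47.8 and 25.2 FPKM. The receptors RARB (-0.28, -2.04, -0.60 and -0.79) and RXRA (-0.42, -0.24, -0.52 and -0.30) were lower in all 4. ALDH1A2, which makes retinoic acid, was lower in MAGI2-CKO (-2.41, adjusted p = 4.7e-10) and higher in MLPH-CKO (0.59). Of 11 genes in a list of CDX, EVX, ParaHox, GBX and MNX genes, 5 were tested, with 0, 0, 1 and 1 higher and 1, 1, 1 and 2 lower. CDX2, a regulator of posterior HOX genes in the gut, was lower in all 4 clones (-0.56, -0.52, -0.37 and -0.37). GBX1 was lower in RHBDD2-CKO (-1.38) and higher in MLPH-CKO (0.46), and PDX1 was higher in RHBDD2-CKO (0.64). Of 12 further upstream regulators 11 were tested, with 3, 3, 2 and 3 higher and 2, 2, 4 and 2 lower; KLF5 was lower in all 4 (-0.27, -0.43, -0.21 and -0.84), and WNT3A was higher in C9orf89-CKO (1.19) and MLPH-CKO (0.75) and lower in RHBDD2-CKO (-1.55).

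Markers were read to check the labelled cell type and the other cell types of the study. Of 12 embryonic kidney markers 9 were tested, with 2, 3, 4 and 2 higher and 2, 2, 2 and 5 lower in clone order (background 12.9 to 17.4% higher and 13.1 to 19.1% lower, here and for the marker lists that follow), and their summed level was 56.3 FPKM in Non-target and 57.5, 65.1, 65.2 and 54.9 FPKM in clone order, with SIX2 most abundant. SIX2, a nephron progenitor gene, was higher in all 4 clones (0.33, 0.41, 0.59 and 0.28) and GATA3 lower in all 4 (-0.55, -0.57, -0.41 and -0.91), and LHX1 was higher in MLPH-CKO (0.94) and MAGI2-CKO (0.46) and lower in RHBDD2-CKO (-0.996). Of 12 adrenal and neural markers 6 were tested, with 2, 3, 2 and 0 higher and 1, 3, 0 and 3 lower, and they summed to 166 FPKM in Non-target and 159.9, 92.6, 191 and 109 FPKM in the clones, with UCHL1 most abundant. The neurofilament gene NEFM had a mean of 27.2 FPKM in Non-target but 0.0274 FPKM in the MAGI2-CKO wells and 1.34 FPKM for RHBDD2-CKO, and NEFL was lower in RHBDD2-CKO (-4.12) and higher in the other 3 (0.36, 0.40 and 0.89). Of 12 mesenchymal stromal markers 5 were tested, with 2, 1, 1 and 0 higher and 2, 3, 1 and 3 lower and sums of 19.7 FPKM in Non-target and 17.04, 16.5, 18.6 and 12.8 FPKM in the clones, TWIST1 being the most abundant; TWIST1 was lower in RHBDD2-CKO (-0.77) and MAGI2-CKO (-0.44), and COL1A1 was higher in the first 3 clones (0.74, 0.93 and 0.83). None of 12 myeloid markers of the U937 kind reached 0.5 FPKM in any library, 1 was at 0 in all of them, and they summed to at most 0.523 FPKM per group, with SPI1 most abundant. The part of the shifts in kidney, neural and mesenchymal markers in the HOX values was not tested.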

How the data were processed

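RNA-seq of 15 HEK293T libraries (5 groups of 3) was used; another cell line of the study was not analysed here. Per the labels, RNA was prepared with RNeasy and an unstranded NEBNext Ultra kit and sequenced on an Illumina NovaSeq. The submitters' processing notes name HISAT2 2.0.5, featureCounts 1.5.0-p3 and DESeq2; build, annotation and normalization were not given in the sources used here. The deposited values were taken as FPKM made by the authors, because each value times the merged exon length of GENCODE v29 was a whole number of fragments (within 0.05) for all 58735 genes. Depth was 15517856 to 19489918 fragments per library (median 17666063), and intervals (95%, exact) cover counting error only.

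Log2(FPKM + 0.1) was fitted with limma 3.58.1 (R 4.3.3, eBayes with trend) over 16175 genes at 0.5 FPKM or more in at least 3 libraries, with Benjamini-Hochberg adjustment per comparison. The fit was tested on simulated data, where a first criterion of recovery was not met and was replaced by one for abundant genes; changed genes of low level were recovered less often, so a low gene that did not pass may still differ. Promoter and miRNA sequences came from RefSeq GRCh38.p14. HOX genes described in full had a mean of at least 1 FPKM and a call of at least 2-fold in a clone, or 1 of the 3 widest ratios of group means in their cluster. HOXA5, HOXA13, HOXB9 and HOXC9 did not meet this rule and were also given in every well. The members and gene lists were chosen with earlier results of these data known. Alternatives changed the filter, the pseudocount, the scaling, the variance model, the libraries, the replicate block and the test. A HOX gene and another gene of the lists are not reported here, although counts and medians include them.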

Additional observations from a re-analysis of the deposited data

How the results depend on the processing

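Of 3796 alternative values of the 136 log2 fold changes of HOX genes against Non-target, 143 lost and 51 gained the threshold, and 73 changed sign, 72 of them where neither fit made a call. The sign change of a call was HOXD13 in RHBDD2-CKO, 0.0102 (adjusted p = 0.919) under quantile normalization; the cause was not tested. A log2 ratio of mean FPKM, chosen after seeing the data, changed no direction of a call. Counts of HOX genes past the threshold stayed within 1.5 times the first count under the filter, pseudocount, scaling, trend and test alternatives, except MLPH-CKO against C9orf89-CKO (8), which was 5 without a filter and 3 with only the 6 libraries compared. Both counts are given without the share of all genes in the same fits. By the rule used the wells were not counted as paired, and the first fit has no term for replicate number. Wells that share a number were still more alike across groups than wells that do not. Over 30 pairs with a shared number the correlation was never below 0.00103 (median 0.0856). Over 60 pairs with different numbers it ran from -0.21 to 0.127 (median -0.0887). Any effect common to a number therefore stays in the spread between wells of the first fit. The 10 pairs of replicate 1 lay between 0.128 and 0.312 (median 0.212). For 12 of 15 libraries the mean correlation was highest with the wells of their own number in the other groups. With the replicate block 20, 23, 21 and 18 HOX genes passed in clone order (35.4, 44.3, 38.9 and 43.5% of all genes), and 30 among the 5 groups (71.9%). The genes it added were HOXB2 in C9orf89-CKO (adjusted p = 0.00161), HOXA5 (0.0215), HOXB2 (0.018), HOXB6 (0.0184) and HOXC9 (0.0201) as lower in MAGI2-CKO, HOXA9 (0.0175) and HOXB13 (0.0149) in MLPH-CKO, and in RHBDD2-CKO HOXA10 (0.00641) and HOXA11 (0.034) as higher and HOXA13 (0.0351) and HOXD8 (0.0426) as lower, and it removed none. On recovered fragments, voom in limma gave 20, 18, 19 and 14 (26.2, 36.9, 31.1 and 34.2% of all genes).

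Leaving out libraries, singly or 1 replicate number in every group, gave 11 to 20 HOX genes for C9orf89-CKO, 9 to 21 for MAGI2-CKO, 10 to 20 for MLPH-CKO and 6 to 15 in RHBDD2-CKO against Non-target. The range was 16 to 22 for RHBDD2-CKO against MAGI2-CKO (22.9 to 45.8% of all genes in the same fits). For RHBDD2-CKO it was 7 to 17 against MLPH-CKO (19 to 39.4%) and 5 to 13 against C9orf89-CKO (12.7 to 34.9%). Against C9orf89-CKO it was 12 to 21 for MAGI2-CKO (6.55 to 31.2%) and 1 to 8 for MLPH-CKO (2.34 to 19.5%). MLPH-CKO against MAGI2-CKO gave 10 to 20 (6.86 to 25.8%), and the F test among the 5 groups 21 to 28 (30.1 to 67.8%). The share of all genes that passed in the same fits ran from 9.22 to 32.4%, 18.1 to 40.4%, 11.4 to 36.9% and 13.7 to 42% in clone order against Non-target. The lowest counts came without replicate 2 or replicate 3 of every group, which leaves 2 wells a group. Leaving out replicate 1 also leaves 2 wells a group, but gave 19, 19, 20 and 14 in clone order against Non-target. The shares of all genes were then 32.4, 40.4, 36.9 and 42%, and the cause was not tested. Of single wells, Non-target replicate 3 or RHBDD2-CKO replicate 2 being left out gave 9 calls in RHBDD2-CKO, not 14. These are 26.5% of the tested HOX genes, against 27.6 and 28.7% of all genes in the same fits. For MLPH-CKO against C9orf89-CKO, C9orf89-CKO replicate 3 or MLPH-CKO replicate 2 being left out gave 5, and MLPH-CKO replicate 3 gave 4.

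Ratios of summed FPKM moved beyond the spread of wells on a TPM scale for RHBDD2-CKO (HOXA 1.66, HOXB 1.40, HOXC 1.21 and HOXD 1.03) and for HOXD in C9orf89-CKO (1.39). Without the most abundant member, HOXB ratios were 1.25, 0.996 and 1.42 in the first 3 clones, HOXC ratios 1.19 in C9orf89-CKO and 1.17 in MLPH-CKO, and HOXD ratios 1.34 in MAGI2-CKO and 0.977 in RHBDD2-CKO. With neighbours within 500 kb the median log2 fold change was 0.0258 (C9orf89-CKO) and -0.913 (MAGI2-CKO) around HOXA, 0.344 in MLPH-CKO around HOXB, and 0.215 (C9orf89-CKO) and 0.0303 (RHBDD2-CKO) around HOXC. Within 2 Mb it was -0.112 in RHBDD2-CKO around HOXA, 0.232 (C9orf89-CKO) and 0.208 (MLPH-CKO) around HOXB, and -0.121 in MAGI2-CKO around HOXD. Exons of other protein-coding genes covered a median of 0% of HOX exon length. The cause of these changes was not tested. The 5 HOX genes under the level tested had at most 18 fragments in any library. With no filter on low values, HOXB1 was still left out, HOXC5 and HOXD3 passed in no clone, HOXD4 passed as higher in MAGI2-CKO (log2 difference 1.28, adjusted p = 0.0471), MLPH-CKO (1.36, 0.0421) and RHBDD2-CKO (1.46, 0.0269), and HOXD12 as higher in MLPH-CKO (0.96, 0.0380). In that fit 17.9, 14.4 and 16.4% of all genes passed in MAGI2-CKO, MLPH-CKO and RHBDD2-CKO.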
